A study of Mus musculus with 2 samples.

Results

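The serpins are a family of proteins of which most inhibit proteases, and they were examined here in mouse back skin that had been stretched and in skin that had not. The members are the genes whose symbol begins with Serpin and that had more than 3 reads in at least 1 of the libraries, which 42 of the 62 such symbols reported here did, out of 24421 gene symbols in the table. Whole-layer skin of wild type C57BL6/J mice gave 1 library of control skin that was not stretched and 1 of skin stretched at 33% strain, both after 5 days. According to the methods, the mice were females of 8 weeks whose hair follicles were kept in the resting phase, the device was glued to the back, and the skin under the glued parts was discarded. The number of mice behind each library is not given in the sources used here. The control library held 14152379 counts and the stretched library 11648655 counts.

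Most serpins trap a protease by offering it a flexible loop, the reactive centre loop, as bait. When the protease cuts the loop, the serpin snaps into a new shape and the enzyme stays bound and distorted. The letters in the loop decide which protease is caught, and the clade letter in a gene's symbol follows sequence relatedness. Clade A holds mostly secreted proteins, many of them made by the liver, and clade B holds proteins that mostly stay inside cells. A few members, such as the collagen chaperone Serpinh1 and the pigment epithelium-derived factor Serpinf1, have a serpin fold but do not inhibit proteases.

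Serpins took a larger part of the stretched library than of the control library. The 62 symbols together held 0.299% of the counts in control skin (42266 counts) and 0.458% in stretched skin (53300 counts). Of the 42 members, 24 had a higher share of the library in stretched skin and 18 a lower one. The share is given as CPM (counts scaled to a library of 1000000 counts), and a fold change is the ratio of CPM in stretched skin to control skin. On the log2 scale, the median fold change of the 42 members was 0.34, beside -0.12 for the 16255 genes above 3 counts, and single members ranged from -2.94 to 2.05 with counts of 3 or fewer set to 3. Since there is 1 library per condition, no difference has a replicate check and no p-value is given. The exact 95% Clopper-Pearson intervals given in brackets cover counting error only, so they describe how the libraries differ, not the conditions.

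The interval lay above 0 for 15 members, where 18.1% of all genes had such an interval, and below 0 for 12 members, where the share of all genes was 33.5%. For the other 15 members it included 0. Under the 4 other scalings of the libraries the count above 0 was 15 as well, while the count below 0 was 9 or 10, and the interval of Serpina3h, among others, then included 0. A stricter call was adapted from the filter and threshold of the methods, which do not mention adding 1 to FPKM. FPKM (CPM per kilobase of exon, computed here from the counts) was multiplied over the libraries with 1 added to each value, and the product, called EV, had to exceed 10, and the ratio of the same values had to reach 2 or fall to 0.5. The EV filter passed 23 members. Of these, 6 were called higher (Serpina3n, Serpina3j, Serpina3m, Serpinb1a, Serpinf1 and Serping1), and of all genes passing the filter 2.61% were. With nothing added to FPKM, Serpina3b was called and Serpina3m was not. None of the 23 was called lower, and of all genes 2.44% were. A CPM fold change of at least 2 with an interval above 0 added Serpina3b, Serpinb1c and Serpinb6e to these 6, which made 9 members against 4.95% of all genes. The same rule downward gave 4 members (Serpina1e, Serpina9, Serpinb3a and Serpinb6d) against 4.61% of all genes. All 4 had few reads, between 16 and 102 counts in control skin and between 2 and 22 in stretched skin.

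**Figure D1:**
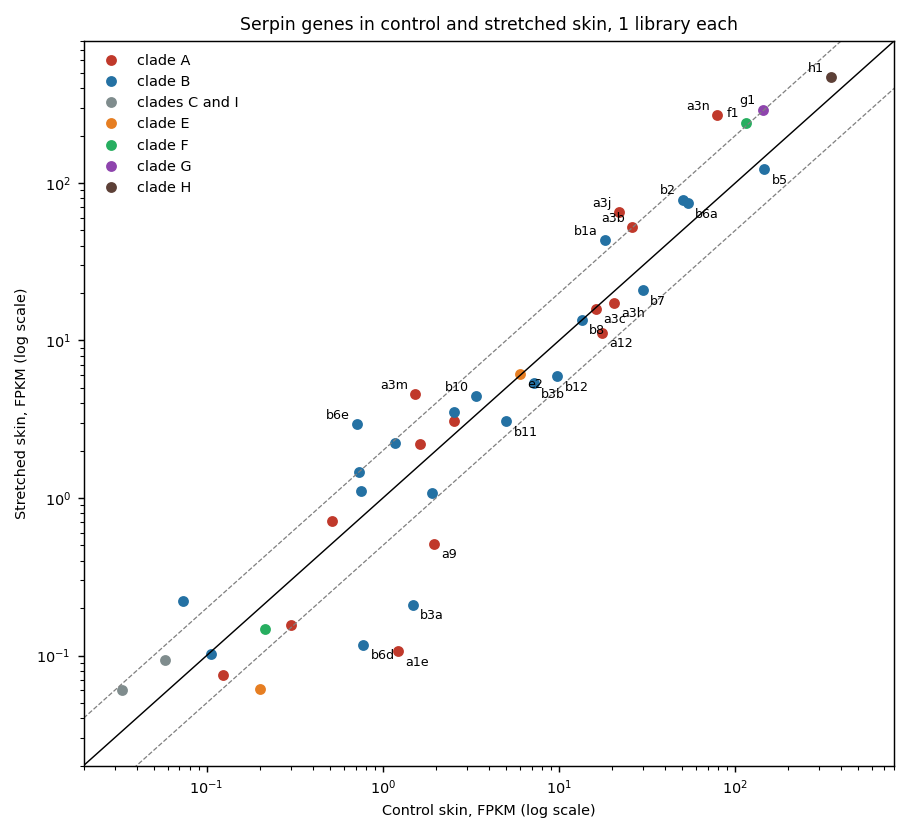
FPKM of the 42 serpin genes in control skin (x axis) and stretched skin (y axis), both on log scales, 1 point per gene coloured by clade, with the prefix Serpin left off the labels. The solid line marks equal values and the dashed lines a 2-fold difference. The abundant genes a3n, a3j and b1a lie above the upper dashed line, f1 and g1 lie close to it, and the points below the lower dashed line are genes of low FPKM.

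By level, Serpinh1 was the highest serpin in both libraries, at 349 FPKM in control and 469 FPKM in stretched skin. Behind it the order differed between the libraries. In control skin Serpinb5 followed at 146 FPKM, then Serping1 at 144 FPKM, Serpinf1 at 116 FPKM and Serpina3n at 78.6 FPKM. In stretched skin Serping1 was second at 292 FPKM, followed by Serpina3n at 270 FPKM, Serpinf1 at 241 FPKM and Serpinb5 at 122 FPKM. The neighbours Serpinb5 and Serping1 in control skin, and Serpina3n and Serpinf1 in stretched skin, lay close enough that exon length decides their order. With the longest transcript in place of all exons, Serping1 stood above Serpinb5 in control skin (189 and 151 FPKM), and Serpinf1 stood above Serpina3n in stretched skin (310 and 270 FPKM). Serpinb6a depended most on this choice, with 53.9 FPKM in control skin by all exons and 133 FPKM by the longest transcript, which puts it at rank 5 in both libraries, above Serpina3n in control skin (78.6 FPKM) and above Serpinb5 in stretched skin (183 and 126 FPKM).

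The composition of the family's transcripts thus differed between the libraries. Of the summed FPKM of the 62 genes, clade A held 16.5% in control and 24.2% in stretched skin, and Serpina3n alone 6.81% and 14.7%. Clade B held 30.2% and 20.9%, although its summed FPKM was higher in stretched skin (348 and 384 FPKM). The other clades together summed to 806 and 1451 FPKM. Serpinb5 alone held 12.7% and 6.67%. Serpinh1 held 30.3% and 25.6%, Serping1 12.5% and 15.9%, and Serpinf1 10.03% and 13.1%. These shares sum to a whole, so a larger share of 1 gene lowers those of the others.

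Among the secreted inhibitors outside clade A, Serpine2 (chr1:79794197-79861180, minus strand), protease nexin 1, which inhibits thrombin and urokinase, did not differ by more than the counting error. It had 701 and 591 counts, or 5.98 and 6.12 FPKM, with a log2 fold change of 0.03 (-0.13 to 0.19).

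Its target urokinase and the genes around it were compared from a list of 9 plasminogen activation genes. In 6 of them the interval lay above 0 and in 1 below 0, with a median log2 fold change of 0.50. Plau, urokinase, had 386 and 465 counts (0.55, 0.35 to 0.75), and its interval lies wholly above that of Serpine2. The interval of Plau overlaps that of Serpinb2, plasminogen activator inhibitor 2, which had 50.5 and 78.1 FPKM (0.63, 0.54 to 0.72). Plat, tissue plasminogen activator, had 702 and 812 counts (0.49, 0.34 to 0.64). Plaur, the urokinase receptor, was the only one of the 9 called, with 118 and 234 counts (1.27, 0.94 to 1.60). The list's highest genes by FPKM, Anxa2 and S100a10, which form a plasminogen receptor, had log2 fold changes of 0.61 and 0.69, and Lrp1, a receptor that clears serpin and protease complexes, 0.50. Vtn, vitronectin, had 139 and 76 counts (-0.59, -1.01 to -0.18). Plg, plasminogen itself, a liver product, had 5 and 2 counts.

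Serping1 (chr2:84765387-84775444, minus strand) encodes the C1 inhibitor, which acts on the complement proteases C1r and C1s and on plasma kallikrein. It had 4728 and 7897 counts, 144 and 292 FPKM, a 2.03-fold difference (log2 fold change 1.02, 0.97 to 1.07). The interval holds a 2-fold change, so its call depends on where the threshold stands. Its complement targets had higher shares too, by a smaller factor in C1s1 (1830 and 2311 counts, 0.62, 0.53 to 0.71) and in C1ra (800 and 1148 counts, 0.80, 0.67 to 0.93). Of 14 coagulation, contact and complement genes, 9 were above 3 counts, with 6 intervals above 0 and 2 below 0, and none was called. The 2 below 0 were F3, tissue factor, and Masp2. The plasma proteases F9 and F11 had 0 counts in both libraries and F12, Klkb1 and Proc 3 counts or fewer.

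Serpinf1 and Serpinh1 are abundant members that do not inhibit proteases. Serpinf1 (chr11:75409769-75422701, minus strand), known for restraining blood vessel growth, had 3862 and 6617 counts, 116 and 241 FPKM, a 2.08-fold difference (log2 fold change 1.06, 1.0002 to 1.12). Serpinh1 (chr7:99345376-99353239, minus strand), also called HSP47, is the chaperone of the endoplasmic reticulum that holds newly made procollagen. Its counts were 12083 and 13348, a 1.34-fold difference (0.42, 0.39 to 0.46). The client genes had larger differences, 1.003 for Col1a1, 0.96 for Col3a1, 0.87 for Col1a2, 0.83 for Col5a2 and 0.66 for Col5a1 on the log2 scale, and the interval of Col5a1 (0.63 to 0.69) lies above that of Serpinh1. Among the folding enzymes Serpinh1 lay between P4hb (0.21, 0.17 to 0.26) and Ppib (0.18, 0.10 to 0.26) below it and Fkbp10 (0.83, 0.72 to 0.94) above it. All 15 genes of the procollagen folding and fibrillar collagen list had intervals above 0, with a median of 0.64, and only Col1a1 was called. P4ha3, a subunit of the prolyl hydroxylases, had the largest difference of the list (16 and 181 counts, 3.78, 3.04 to 4.62) and was under the EV filter.

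A fibroblast marker list moved with these genes. All 7 of its markers had intervals above 0, and their summed level was 41013 CPM in control and 77211 CPM in stretched skin, of which the collagens Col1a1, Col1a2 and Col3a1 are by far the largest part. Of the markers that are no collagen, Dcn (0.06), Lum (0.25) and Pdgfra (0.18) had smaller log2 fold changes than the 3 collagens, while Pdgfrb (0.93, 0.82 to 1.04) was in their range. In bulk skin, more cells of a type and more RNA per cell cannot be told apart, and the part of fibroblasts in the values of Serpinf1, Serping1 and Serpinh1 was not tested.

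The remaining members of clades C to I were near the floor. Serpinc1, antithrombin, had 4 and 6 counts, and 32.5% of its 76-base stretches also lie in the exons of the overlapping gene Zbtb37 on the other strand, so its reads are uncertain. Serpinf2, the plasmin inhibitor alpha2-antiplasmin, had 7 and 4 counts, Serpini1, neuroserpin, had 6 and 8, and Serpine3 had 4 and 1. Serpind1, heparin cofactor II, with 3 counts in each library was just outside the rule, and Serpini2 had 0 in both. Antithrombin, antiplasmin and heparin cofactor are made by the liver. The 8 members of clades C to I together had a median log2 fold change of 0.56 (0.24 with 1 CPM added to both values), with 3 intervals above 0 and none below, but 4 of the 8 rest on fewer than 20 counts over both libraries.

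**Figure D2:**
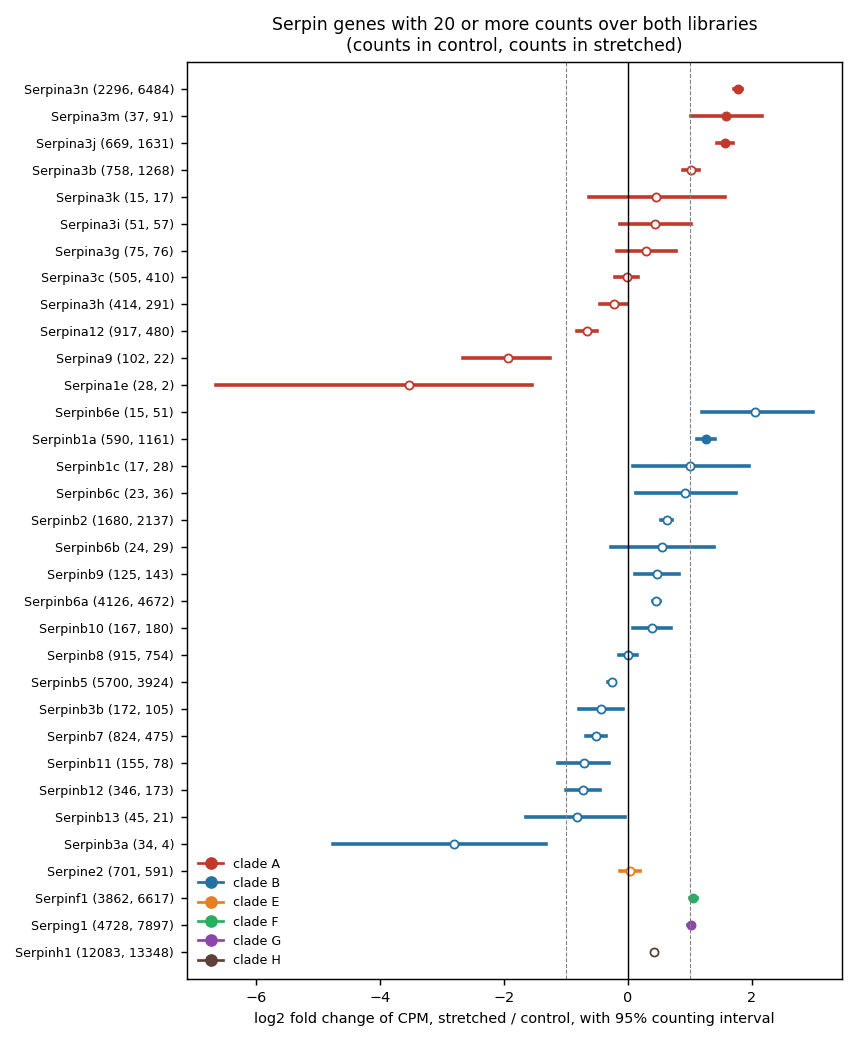
Log2 fold change of CPM, stretched over control (x axis), of the serpin genes with 20 or more counts over both libraries, with exact 95% counting intervals as lines, coloured by clade and with the counts in both libraries beside each name. Filled points were called higher, open points were not called, and the dashed lines mark 2-fold. The intervals of Serpina3n, Serpina3j, Serpina3m, Serpinb1a, Serpinb6e and, barely, Serpinf1 lie wholly above 2-fold, and the widest belong to Serpina1e and Serpinb3a.

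Clade A split into parts that differed in opposite directions. Its 14 members out of 25 symbols had a median of 0.14, with 4 intervals above 0 and 4 below. The median was 0.44 without genes that share 10% or more of stretches and 0.37 where a minimum of 20 counts, both libraries summed, was set. The Serpina3 group, a run of tandem copies of 1 ancestral gene on chromosome 12, had 10 of 11 symbols above 3 counts and a median of 0.45, with 4 intervals above 0 and 1 below. Of the other clade A genes, only 4 of 14 were above 3 counts. All 4 were lower in stretched skin, with a median of -1.44, and 3 had an interval below 0.

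The human genome holds a single SERPINA3, and the mouse copies differ most in the loop that meets the protease. To show how far they can be told apart, the coding stretch from the hinge glutamate of the reactive centre loop to the conserved phenylalanine beyond it is printed for the 3 copies that were called, the 1 just outside the call and 1 that did not differ. All are on the chr12 of mm10 with GENCODE M21 transcripts, in the direction of the transcript. Capitals mark bases that differ from Serpina3n, or have no partner in it, in an alignment made here.
Serpina3n, chr12:104413442-104413537, plus strand: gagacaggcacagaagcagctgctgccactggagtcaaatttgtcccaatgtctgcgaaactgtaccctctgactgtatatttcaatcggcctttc
Serpina3j, chr12:104319680-104319775, plus strand: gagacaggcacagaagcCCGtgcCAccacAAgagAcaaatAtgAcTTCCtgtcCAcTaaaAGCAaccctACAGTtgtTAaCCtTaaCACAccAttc
Serpina3m, chr12:104393763-104393858, plus strand: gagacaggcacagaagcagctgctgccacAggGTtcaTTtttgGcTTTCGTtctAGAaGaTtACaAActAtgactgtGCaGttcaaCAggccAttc
Serpina3b, chr12:104138659-104138754, plus strand: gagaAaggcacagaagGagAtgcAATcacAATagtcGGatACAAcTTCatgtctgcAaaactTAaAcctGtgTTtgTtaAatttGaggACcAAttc
Serpina3c, chr12:104147307-104147393, minus strand: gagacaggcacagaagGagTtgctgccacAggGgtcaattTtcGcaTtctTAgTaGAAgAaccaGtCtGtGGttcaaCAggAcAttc
The first bases, which encode the hinge, are nearly the same in the 5 genes, and most capitals lie beyond them, spread toward the end of the stretch. Serpina3j differed from Serpina3n at 36 of its 96 bases. Its loop stretch was 62.5% identical to that of Serpina3n, against 84.5% for the coding sequence before the loop. The same held in Serpina3m (70.8% and 87.5%), Serpina3b (68.8% and 82.1%) and Serpina3c (73.6% and 88.1%).

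Serpina3n (chr12:104406729-104414329, plus strand) is an acute phase protein that inhibits granzyme B and cathepsin G, and it had the most reads of clade A. It had 2296 counts in control and 6484 in stretched skin, 78.6 and 270 FPKM, a 3.43-fold difference (log2 fold change 1.78, 1.71 to 1.85). Serpina3j (chr12:104314553-104320725) followed with 669 and 1631 counts, 21.9 and 65.0 FPKM (1.57, 1.44 to 1.70). Serpina3m (chr12:104338486-104394257) had far fewer, 37 and 91 counts or 1.52 and 4.54 FPKM (1.58, 1.01 to 2.17). Its EV of 14.0 was just inside the filter.

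Serpina3b (chr12:104127996-104139545) was just outside the call, with 758 and 1268 counts, 25.9 and 52.6 FPKM (1.02, 0.89 to 1.15). Its fold of CPM was 2.03, and adding 1 to each FPKM brought it under 2. Among the remaining copies no interval lay above 0. Serpina3c had 505 and 410 counts (-0.02, -0.21 to 0.17), and the sign of this value turns positive under each of the 4 other ways of scaling the libraries that were tried. Serpina3g, which inhibits cysteine cathepsins, had 75 and 76 counts (0.30, -0.18 to 0.78). Serpina3i had 51 and 57 (0.44, -0.13 to 1.02) and Serpina3k, a kallikrein-binding protein, 15 and 17 (0.46, -0.63 to 1.57). Serpina3h, annotated as a transcribed pseudogene, had 414 and 291 counts (-0.23, -0.45 to -0.01). The copies with few counts have wide intervals. Serpina3f had 4 and 2 counts, just inside the floor, and Serpina3a had 0 in both.

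The 4 copies with a 2-fold difference do not sit side by side. In chromosomal order Serpina3b stands at one end of the measured copies, Serpina3c, Serpina3f, Serpina3g, Serpina3h and Serpina3i come between it and Serpina3j, and Serpina3k separates Serpina3j from Serpina3m and Serpina3n at the other end. Summed over all 11 symbols, so that reads misplaced among them cancel, the group had 4824 and 10327 counts (1.38, 1.33 to 1.43). Without Serpina3n the sum was 2528 and 3843 counts (0.89, 0.81 to 0.96). Reads shared with Serpina3e-ps do not cancel. This copy is not among the 11 and shares stretches with Serpina3n, Serpina3f, Serpina3g, Serpina3h and Serpina3i. Serpina3f, Serpina3g, Serpina3h and Serpina3i, which share 76-base stretches with each other, summed to 544 and 426 counts (-0.07, -0.26 to 0.11).

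**Figure D3:**
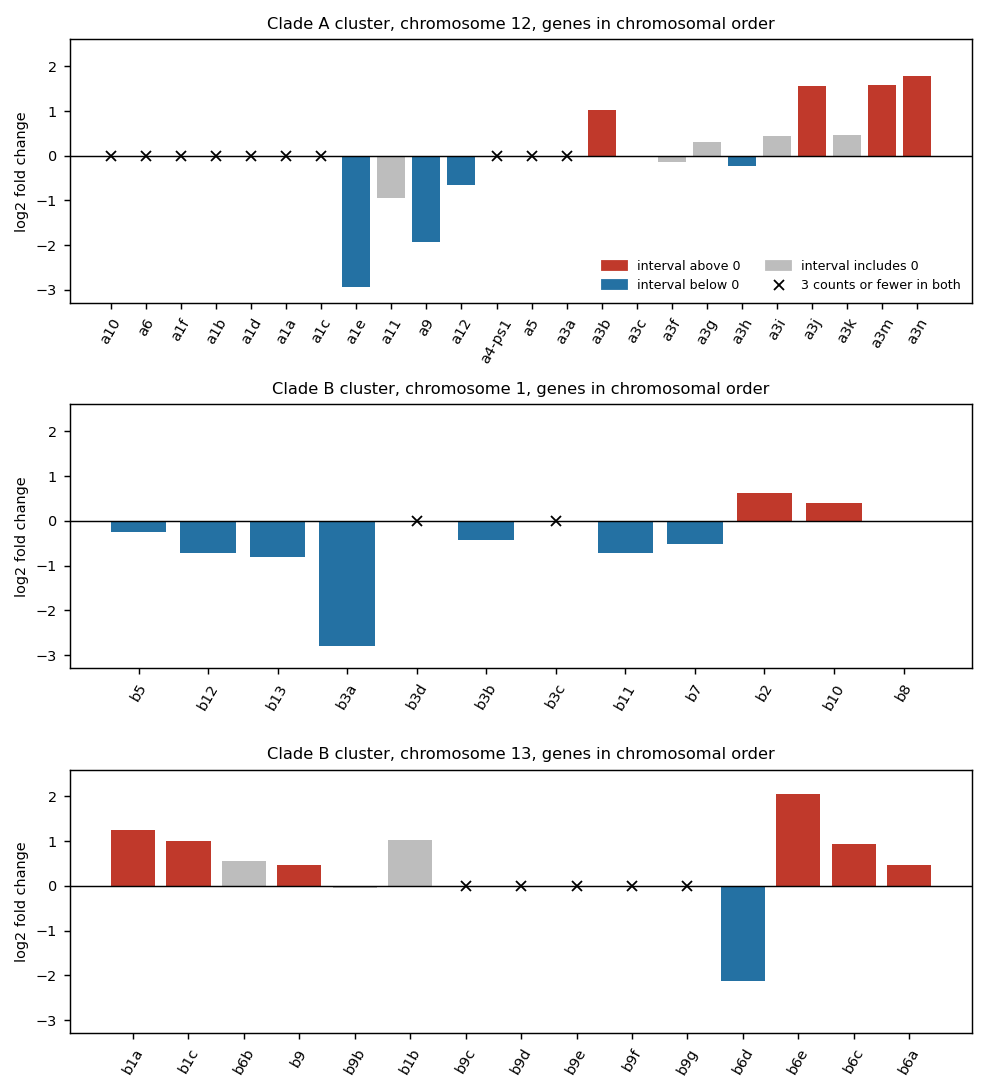
Log2 fold change of CPM (y axis, counts of 3 or fewer set to 3) of the serpin genes of 3 clusters in chromosomal order, 1 bar per gene, without the prefix Serpin, with colours for the side of 0 on which the counting interval lies. Crosses mark genes with 3 counts or fewer in both libraries. On chromosome 12 the 4 tall red bars are a3b, a3j, a3m and a3n, on chromosome 1 the bars from b5 to b7 are below 0, and on chromosome 13 6 bars have an interval above 0.

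Granzyme B, cathepsin G and neutrophil elastase, targets of Serpina3n or of inhibitors of clade B, had few reads. Of 11 granule serine proteases, 9 were above 3 counts, 6 with an interval above 0 and none below, and none was called. The mast cell proteases were the highest of these, with 783 and 1136 counts for Cma1, 868 and 1076 for Mcpt4 and 585 and 687 for Tpsb2. Gzmb, granzyme B, had 2 and 8 counts, Ctsg, cathepsin G, 5 and 4, and Elane, neutrophil elastase, 2 and 2. The lysosomal cysteine proteases had higher shares throughout, with 8 of 8 intervals above 0 and a median of 0.64. Ctss, Ctsk and Lgmn were called, at log2 fold changes of 1.84, 1.33 and 1.25.

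Markers of some blood cells differed along with the called Serpina3 genes. Of 12 macrophage markers, 11 had an interval above 0 and 9 were called, and their summed level was 947 CPM in control and 2243 CPM in stretched skin. The exception was Mertk, with 321 and 243 counts. Among 8 neutrophil markers 5 were above 3 counts, 4 of them with an interval above 0, and the sum was 12.9 and 63.4 CPM. Ngp, a granule gene, was at 0 in both libraries and Mpo at 0 and 3 counts. Of 7 mast cell markers 5 had an interval above 0 and 1 below, with a sum of 260 and 360 CPM, and of 6 measured T and NK cell markers 1 had an interval above 0 and none below, with a sum of 8.62 and 11.4 CPM. Stress keratinocyte genes had an interval above 0 in 6 of 8 and below 0 in 1, with a sum of 1636 and 1682 CPM. Krt16 had 849 and 3182 counts, while Krt17, the most abundant of the list, had 19209 and 10271. S100a8 (57 and 283 counts) and S100a9 (69 and 187) are in both the neutrophil and the stress keratinocyte list. The part of these cells in the values of Serpina3n and its copies was not tested.

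The clade A genes outside the Serpina3 group were lower. Serpina12 (chr12:104028769-104044443, minus strand), vaspin, an inhibitor of the skin protease kallikrein 7 that is also made by fat, had 917 and 480 counts, 17.6 and 11.2 FPKM (-0.65, -0.82 to -0.49). Serpina9 had 102 and 22 counts (-1.93, -2.67 to -1.26). Its EV was under 10, so it could not be called. Serpina11 had 7 and 3 counts, and 34.1% of its stretches lie in an overlapping gene. Beside Serpina12, 6 of 6 adipocyte markers had an interval below 0 (log2 fold changes from -0.84 to -0.56), and their sum was 1728 and 1118 CPM. Its target Klk7 had 4439 and 3267 counts (-0.16, -0.23 to -0.10). The part of fat in the value of Serpina12 was not tested.

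Serpina1e belongs to the alpha-1 antitrypsin genes, which inhibit neutrophil elastase and are made chiefly by the liver. It had 28 and 2 counts (-3.53, -6.64 to -1.54), with an interval that spans a wide range of sizes. The 5 copies Serpina1a to Serpina1e are near-identical, and 19.3% of the 76-base stretches of Serpina1e recur in another gene. Summed, they had 30 and 7 counts (-1.82, -3.25 to -0.60), a smaller difference than in Serpina1e alone. Serpina1a had 0 and 3 counts, Serpina1b 0 and 1, Serpina1c 1 and 1 and Serpina1d 1 and 0. Of 7 hepatocyte markers 4 were above 3 counts, 1 had an interval below 0, and their sum was 17.5 and 9.01 CPM, with Alb at 70 and 39 counts and Fgb at 0. Other members of the clade were at the floor. Serpina10, Serpina5, Serpina6, Serpina7 and Serpina1f had 3 counts or fewer in both.

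Clade B divided by chromosome. Its 20 members out of 27 symbols had a median log2 fold change of 0.20, with 8 intervals above 0 and 8 below. The median was 0.0017 without genes that share 10% or more of stretches and 0.39 where a minimum of 20 counts, both libraries summed, was set. The cluster on chromosome 1 had 10 of 12 symbols above 3 counts and a median of -0.47, with 2 intervals above 0 and 7 below. The cluster on chromosome 13 had 10 of 15 and a median of 0.74, with 6 above and 1 below. This median lies between 2 genes with few reads, Serpinb6b (24 and 29 counts) and Serpinb6c (23 and 36). The genes of the cluster with the most reads, Serpinb6a, Serpinb1a and Serpinb9, had log2 fold changes of 0.46, 1.26 and 0.47. With the other scalings tried, the chromosome 1 count below 0 was 5 or 6, with medians from -0.41 to -0.36, and the chromosome 13 counts stayed at 6 and 1.

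On chromosome 1, 7 genes had an interval below 0. Serpinb5 (chr1:106861173-106883348, plus strand), maspin, had the most reads of the cluster, with 5700 and 3924 counts, 146 and 122 FPKM (-0.26, -0.32 to -0.20). Serpinb7 (chr1:107399655-107452689), a gene of the outer epidermis, had 824 and 475 counts, 29.8 and 20.8 FPKM (-0.51, -0.68 to -0.35). Larger differences were found in genes with fewer reads. Serpinb12 had 346 and 173 counts (-0.72, -0.99 to -0.45) and Serpinb11 155 and 78 (-0.71, -1.12 to -0.31). Serpinb13, which inhibits cysteine cathepsins, had 45 and 21 (-0.82, -1.64 to -0.04). Serpinb3b had 172 and 105 (-0.43, -0.80 to -0.07) and its copy Serpinb3a 34 and 4 (-2.81, -4.76 to -1.32). Both belong to the squamous cell carcinoma antigen genes. The 4 Serpinb3 symbols summed to 209 and 109 counts (-0.66, -1.01 to -0.32), and Serpinb3c and Serpinb3d had 2 counts or fewer in each library. None of these 7 genes was called lower.

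The other 3 genes of the cluster stand together at its far end. Serpinb2 (chr1:107511423-107535478, plus strand), plasminogen activator inhibitor 2, had 1680 and 2137 counts, 50.5 and 78.1 FPKM (0.63, 0.54 to 0.72). Its neighbour Serpinb10, annotated as a polymorphic pseudogene, had 167 and 180 counts (0.39, 0.08 to 0.70). Their gene models overlap and share 8.91% of the stretches of Serpinb2 and 6.01% of those of Serpinb10. Serpinb8, which inhibits furin, had 915 and 754 counts (0.00, -0.14 to 0.14).

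Lists of keratinocytes were set beside the chromosome 1 genes. Of 7 basal keratinocyte markers 3 had an interval above 0 and 3 below, and their sum was 9616 CPM in control and 10006 CPM in stretched skin. Of 7 suprabasal markers 6 were above 3 counts, with 5 intervals above 0 and 1 below, and a sum of 8938 and 9395 CPM. The 4 markers with an interval below 0 were Ivl (-0.53), Trp63 (-0.49), Krt15 (-0.46) and Itga6 (-0.13). Genes of the hair matrix and shaft, which mark growing hair, were lower in 10 of 10, with a sum of 9140 CPM in control and 1674 CPM in stretched skin, although the methods describe resting follicles. Whether the hair follicle had a part in the clade B values was not tested.

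The targets and fellow inhibitors of the epidermis gave a mixed picture. Of 11 kallikreins and membrane serine proteases 2 had an interval above 0 and 6 below, with a median of -0.20 and none called. St14, matriptase, had 2488 and 1161 counts (-0.82) and Prss8, prostasin, 603 and 304 (-0.71), while Klk6 had 298 and 482 (0.97) and Htra1 2083 and 2465 (0.52). Of 13 serine protease inhibitors and related genes of other families 11 were above 3 counts, with 4 intervals above 0 and 5 below. Spint1 (-0.95) and Spink5 (-0.50), epithelial inhibitors of matriptase and of kallikreins, were lower. Slpi (26 and 77 counts), Tfpi2 (38 and 91) and Pi16 (2947 and 4980) were called higher.

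**Figure D4:**
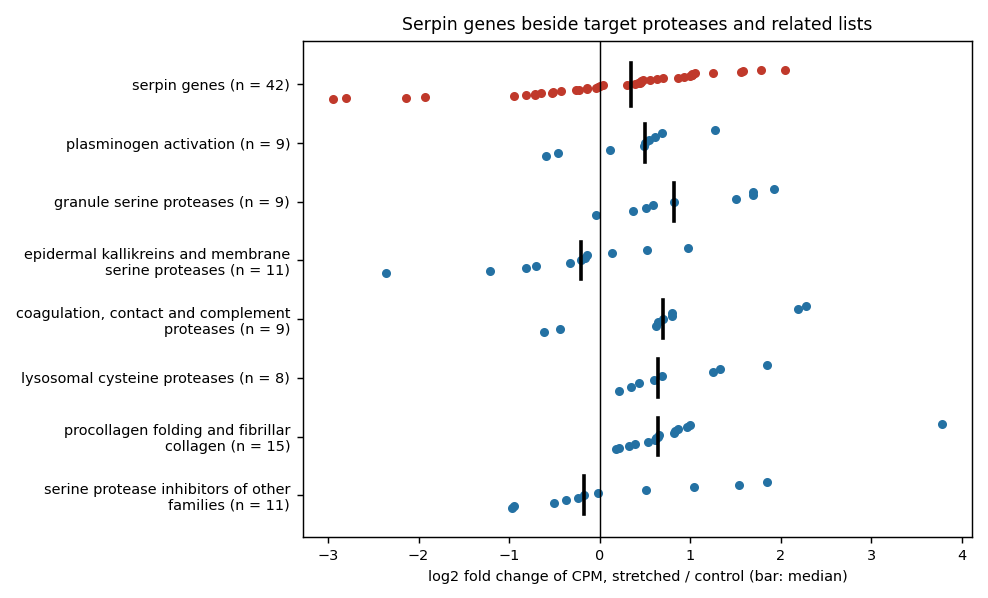
Log2 fold change of CPM, stretched over control (x axis, counts of 3 or fewer set to 3), of the 42 serpin genes and of the measured genes of 7 lists (rows), 1 point per gene, with a black bar at the median. The serpin median is 0.34, the list medians run from -0.20 for the kallikreins and membrane proteases to 0.82 for the granule proteases, and the serpins range from -2.94 to 2.05.

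The promoters of the chromosome 1 cluster share a sequence feature. The letters TGANTCA, the motif that AP-1 binds, read the same on both strands and were searched in the RefSeq promoters (GRCm38.p6, from 250 bases before to 50 after the start), which held 52 of the 62 genes. They were present in 7 of the 11 chromosome 1 genes with a promoter (63.6%) and in none of 14 on chromosome 13. Of the 52 serpins 11 had them (21.2%), where 8.97% of 27025 genes do. The other 4 of the 11 were Serpina1a, Serpina1b, Serpina1c and Serpina1d, near-identical copies too low in both libraries to be members. None of the 9 genes of clades C to I with a promoter had them. The family share thus rests on the chromosome 1 cluster and these copies. Of the 9 sites in the 7 chromosome 1 genes, 6 are printed, 1 per gene. They have 12 bases on each side and the motif in capitals, and are shown because both directions of difference occur among them.
Serpinb5, chr1:106861023-106861053, plus strand: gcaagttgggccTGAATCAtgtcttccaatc
Serpinb12, chr1:106934392-106934422, plus strand: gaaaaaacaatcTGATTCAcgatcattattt
Serpinb7, chr1:107422632-107422662, plus strand: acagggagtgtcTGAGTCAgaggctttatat
Serpinb2, chr1:107511317-107511347, plus strand: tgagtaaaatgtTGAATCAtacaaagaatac
Serpinb10, chr1:107528937-107528967, plus strand: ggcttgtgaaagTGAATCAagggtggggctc
Serpinb8, chr1:107589971-107590001, plus strand: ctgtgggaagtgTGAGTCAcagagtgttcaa
Serpinb8 has a further site, and the seventh gene, Serpinb11, has 2. Among these 7 genes are the 2 with an interval above 0 (Serpinb2 and Serpinb10), Serpinb8 with a value of 0.00, and 4 with an interval below 0. Whether the letters go with a direction was not tested. The letters TTCNNNGAA, the site of STAT factors, were present in 8 of the 52 serpins (15.4%), against 9.55% of all genes. A match describes the sequence and is no evidence of binding, and the promoters of Serping1, Serpinb1a and Serpina3m were not searched.

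On chromosome 13, Serpinb1a and Serpinb6a carried most of the reads. Serpinb1a (chr13:32842092-32851185, minus strand), which inhibits neutrophil elastase, cathepsin G and proteinase 3, had 590 and 1161 counts, 18.1 and 43.3 FPKM (1.26, 1.11 to 1.40), and was the only clade B gene called. Its copies had few reads, 17 and 28 in Serpinb1c (1.001, 0.08 to 1.96) and 2 and 5 in Serpinb1b, just above the floor. The 3 summed to 609 and 1194 (1.25, 1.11 to 1.40), and the copies share less than 2% of their stretches. Serpinb9, an inhibitor of granzyme B, had 125 and 143 counts (0.47, 0.12 to 0.83). Its copy Serpinb9b had 5 and 4, with a sign that turns positive under the other scalings, and Serpinb9c to Serpinb9g had 0 in both libraries. The macrophage and neutrophil markers given above moved with Serpinb1a as well, and their part in its value was not tested.

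The Serpinb6 copies are shown as the loop stretch of the abundant gene and of the copies with a 2-fold difference, as above, with capitals for bases that differ from Serpinb6a.
Serpinb6a, chr13:33918107-33918199, minus strand: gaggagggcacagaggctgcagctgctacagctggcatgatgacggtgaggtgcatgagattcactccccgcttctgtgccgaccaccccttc
Serpinb6d, chr13:33671326-33671415, plus strand: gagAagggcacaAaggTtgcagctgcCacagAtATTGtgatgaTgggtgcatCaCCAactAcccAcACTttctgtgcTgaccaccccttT
Serpinb6e, chr13:33832525-33832614, minus strand: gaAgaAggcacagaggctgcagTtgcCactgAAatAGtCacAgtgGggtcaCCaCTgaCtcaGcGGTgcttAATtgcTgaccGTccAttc
Serpinb6a (chr13:33917918-34002794, minus strand), an intracellular inhibitor of cathepsin G, had 4126 and 4672 counts (0.46, 0.40 to 0.52). Its gene model overlaps Nqo2, Ripk1 and 1110046J04Rik on the plus strand, which account for the 21.9% of its stretches found in another gene. Those genes had 243 and 212, 602 and 605, and 13 and 19 counts, far fewer than Serpinb6a. Serpinb6e had 15 and 51 counts, a 4.13-fold difference (2.05, 1.19 to 2.98), and Serpinb6d 16 and 2 (-2.72, -5.88 to -0.63), in opposite directions. Each shares less than 0.3% of its stretches with another gene, and the loop of Serpinb6e was 71.6% identical to that of Serpinb6a. Serpinb6c had 23 and 36 counts (0.93, 0.13 to 1.75) and Serpinb6b 24 and 29 (0.55, -0.28 to 1.40). Both Serpinb6d and Serpinb6e were under the EV filter and were not called.

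**Figure D5:**
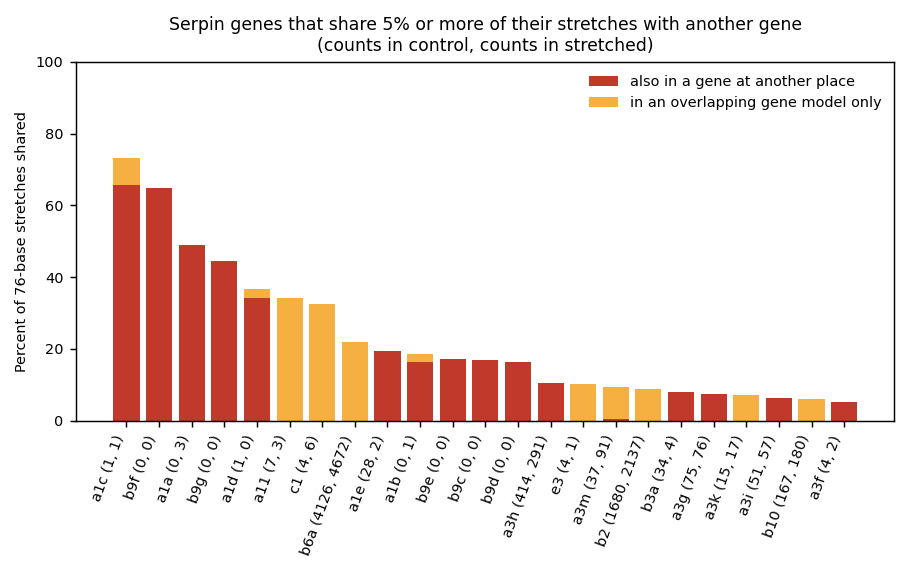
Percent of the 76-base exonic stretches (the full read length) that each serpin gene shares with another gene (y axis), for genes that share 5% or more, with the counts in both libraries beside each name, without the prefix Serpin. Red marks stretches found at another place and yellow those found in an overlapping gene model only. Genes with the tallest red bars have 3 counts or fewer in both libraries, and b6a is the only gene above 20% with more than 7 counts.

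Near-identical copies bear on which serpins can be read at all. A read of 76 bases cannot be placed where the same bases occur at another place in the genome, and where gene models overlap at 1 place it can be placed, but which of them it was counted for is not given in the sources used here. The stretches were searched in annotated transcripts only, and the methods also kept shorter reads, so sharing may be higher than given. Of the 62 genes 15 share 10% or more of their stretches in either way, of which 6 are among the 42 members. Copies at another place make up 10% or more in 11 of the 15, and only Serpina1e and Serpina3h of these are members. Serpina11, Serpinc1, Serpinb6a and Serpine3 share stretches with an overlapping gene model only. None of the 6 called genes is among the 15. The strongest cases were Serpina1c (73.3%), Serpinb9f (64.9%), Serpina1a (49.0%), Serpinb9g (44.5%) and Serpina1d (36.6%). Serpinb9f and Serpinb9g have coding sequences 98.7% identical and had 0 counts in both libraries, and how the counting treated shared reads is not given in the sources used here, so a 0 in these genes does not show that they were silent. Of the called genes, Serpina3m shares 9.41% of its stretches, nearly all with the overlapping model of Serpina3k, and the pair summed to 52 and 108 counts (1.34, 0.85 to 1.84). Serpina3n shares 1.41%, Serpinb1a 0.266%, Serpina3j 0.0962% and the other 2 called genes none.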

How the data were processed

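RNA of whole-layer skin was sequenced from 1 library per condition. Per the methods, single-end reads of 76 bases were quality filtered and then placed by TopHat2 on the mouse genome mm10. Raw read counts, as the authors deposited them, are given per gene symbol, without normalization. The counter, its annotation and its handling of strand and shared reads are not given in the sources used here.

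The 62 symbols beginning with Serpin that are reported were matched by name to GENCODE M21 on the same build (of the 24421 symbols, 23384 by name, 650 by synonym, 387 without length). CPM and FPKM (total counts, union of exons) were computed here, with 1 added to FPKM for the calls (EV above 10, fold of at least 2 or at most 0.5). Ratios of CPM carry exact 95% intervals of counting error, and 3 counts equal 0.212 CPM in control and 0.258 CPM in stretched skin. Medians use counts of 3 or fewer set to 3. Shared stretches of 76 bases and alignments (Biopython 1.88) came from the annotated transcripts, and promoters from RefSeq. The hinge and end of each loop were found by pattern in the translated coding sequence (51 of 60).

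Values are given for members that were called, that passed 2-fold with an interval excluding 0, that were high in FPKM or lay near a limit, and for called or high list genes. Of the family, 1 further symbol is not reported here and enters no count or sum of the family. The members and lists were chosen with earlier results of these data known. Alternatives were scaling by the upper quartile, by the median of ratios (DESeq2 1.42.0), by TMM (edgeR 4.0.16) or by totals without the top 50 genes, other pseudocounts, filters and lengths, and leaving out genes with shared stretches. Tested on simulated data with 4-fold changes, 130 of 132 changed genes that met the thresholds were called rightly and 0 of 24221 unchanged genes were called. The simulated counts varied by counting error only, so the check does not cover variation between animals. Many of the unchanged genes were too low to be called, as only 10910 genes pass the EV filter in the real data. Python 3.11.15, numpy 2.4.6, pandas 2.3.3, scipy 1.17.1, matplotlib 3.10.9 and R 4.3.3 were used.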

Additional observations from a re-analysis of the deposited data

How the results depend on the processing

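The count of serpin genes called higher was 6 and lay between 5 and 8 under the 11 alternatives. Serpina3b was added by the 4 other scalings, by adding nothing to FPKM and by using CPM in place of FPKM. Serpinb6e was added without the EV filter and with CPM. Serpina3m was lost with nothing added to FPKM and with EV above 100, and Serping1 was lost when the interval had to lie wholly past 2-fold. The count called lower was 0, and it became 2 without the EV filter (Serpina1e and Serpinb3a) and 1 with CPM in place of FPKM (Serpina9).

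Over the 42 members, the median log2 fold change lay between 0.24 and 0.46 under the 7 alternatives, that of clade A between 0.12 and 0.44, and that of clades C to I between 0.24 (1 CPM added) and 0.72 (at least 20 counts over both libraries). The clade B median was 0.0017 when genes with 10% or more shared stretches were left out, where only Serpinb6a leaves the clade and Serpinb8 becomes the middle gene. The 4 other scalings raise every log2 value by 0.06 to 0.12, and of the 42 genes only Serpina3c and Serpinb9b changed sign.

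No paired analysis was possible because each condition has a single library, and leaving out a library was not possible either. The interval of Serpina1e, with 28 and 2 counts, ran from -6.64 to -1.54 on the log2 scale, so at such depth neither the size of a difference nor its absence can be read.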
